A study of Homo sapiens with 6 samples.

Results

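The genes of the classical SR proteins, the TRA2 proteins, the CLK kinases and the hnRNPs were examined in SW480, an established human colorectal cancer line. Members were taken by gene symbol: SRSF followed by a number, HNRNP followed by its letters, CLK1 to CLK4, and TRA2A and TRA2B, with pseudogenes left out. They were 43 of 39293 genes in the deposited count table, namely 12 SR protein genes, 2 TRA2 genes, 4 CLK genes and 25 hnRNP genes. Cells in 3 wells received dihydroartemisinin (DHA) at 20 µg/mL for 4 h, and 3 control wells received the solvent, 0.1% DMSO, for the same time. Poly(A) RNA was sequenced. The labels do not tie the wells to separate cultures or days, and the spread that p-values rest on may therefore be technical.

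SR proteins bind exonic sequences through an RNA recognition motif and recruit the splicing machinery through a domain rich in arginine and serine. CLK kinases phosphorylate that domain in the nucleus and release SR proteins from nuclear speckles, and the TRA2 proteins are related splicing activators. Many hnRNPs, abundant RNA-binding proteins that coat nascent transcripts, repress nearby splice sites, and members of both classes hold down their own mRNA through alternative exons or introns that lead to nonsense-mediated decay.

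Promoter sequence is shown for genes that moved in opposite directions, so that their start regions can be set side by side. The windows hold the 250 bases before the first-listed RefSeq start (GRCh38.p14), written 5′ to 3′ on the gene's strand, and capitals mark matches to any of 8 motifs searched on both strands. CLK1, SRSF3 and SRSF7 were higher after DHA, and SRSF1 and HNRNPR were lower. The windows lie at chr2:200864659-200864908 for CLK1, chr6:36594112-36594361 for SRSF3, chr2:38751495-38751744 for SRSF7, chr17:58007247-58007496 for SRSF1 and chr1:23344285-23344534 for HNRNPR, all on the minus strand except SRSF3.
CLK1: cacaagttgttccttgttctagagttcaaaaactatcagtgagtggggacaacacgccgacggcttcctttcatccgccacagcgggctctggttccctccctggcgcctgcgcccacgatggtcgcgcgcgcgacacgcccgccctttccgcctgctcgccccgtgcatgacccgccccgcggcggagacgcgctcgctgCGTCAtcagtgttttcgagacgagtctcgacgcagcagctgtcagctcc
SRSF3: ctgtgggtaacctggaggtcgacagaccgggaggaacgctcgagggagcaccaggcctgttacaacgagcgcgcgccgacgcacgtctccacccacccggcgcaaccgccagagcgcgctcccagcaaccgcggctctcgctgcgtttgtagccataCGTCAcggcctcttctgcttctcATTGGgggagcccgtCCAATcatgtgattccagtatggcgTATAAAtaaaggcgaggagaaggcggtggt
SRSF7: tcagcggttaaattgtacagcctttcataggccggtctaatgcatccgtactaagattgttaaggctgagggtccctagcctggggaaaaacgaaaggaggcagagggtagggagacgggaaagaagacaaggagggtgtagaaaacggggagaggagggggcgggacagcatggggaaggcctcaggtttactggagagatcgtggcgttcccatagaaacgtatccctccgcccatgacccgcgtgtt
SRSF1: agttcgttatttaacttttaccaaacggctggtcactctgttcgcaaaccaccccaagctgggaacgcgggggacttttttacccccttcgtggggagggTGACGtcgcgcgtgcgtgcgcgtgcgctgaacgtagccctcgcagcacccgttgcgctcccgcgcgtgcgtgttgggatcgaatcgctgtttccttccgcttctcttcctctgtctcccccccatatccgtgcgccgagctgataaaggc
HNRNPR: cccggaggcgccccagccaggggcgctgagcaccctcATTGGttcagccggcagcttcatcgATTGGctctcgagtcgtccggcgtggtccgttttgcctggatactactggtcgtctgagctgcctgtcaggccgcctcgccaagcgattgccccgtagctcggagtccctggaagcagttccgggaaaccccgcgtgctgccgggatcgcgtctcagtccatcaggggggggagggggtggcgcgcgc

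The CLK1, SRSF3 and SRSF1 windows each hold the core of a cAMP response element, TGACG, read on 1 strand or the other. The SRSF3 window also holds CCAAT on both strands and TATAAA, the HNRNPR window holds CCAAT on the opposite strand at 2 places, and the SRSF7 window holds no match. By the deposited coordinates CLK1, SRSF3, SRSF1 and HNRNPR begin upstream of the RefSeq start used. The downstream end of those windows therefore lies inside the deposited gene. Of the marked matches, only the TGACG of CLK1 lies in such an end. A promoter was found for 39 of the 43 members, of which 35 were among the genes tested for change. CCAAT was in 16 of these 35 windows (45.7%) against 33.0% of 27305 promoters, and in 2 of 10 members higher after DHA, 10 of 15 lower and 4 of 10 not called. The 27305 promoters leave out chromosome 8 and were not limited to genes tested for change. TGACG was also in 16 of 35 windows (45.7%) against 21.7% of all, in 6 of 10 higher, 5 of 15 lower and 5 of 10 not called. The shares of CCAAT and TGACG over all genes called higher, lower or not called were not computed. These splits of the members therefore have no background to be set against. The E-box CACGTG was in 8 of 35 against 6.49% of all, TATAAA in 5 of 35 against 11.1%, the ETS site CCGGAAG in 5 of 35 against 8.82% and the heat shock element core GAANNTTC in 3 of 35 against 5.85%. The full cAMP response element TGACGTCA, which contains TGACG, and the AP-1 site TGANTCA were in 0 of 35 windows, against 1.77% and 6.60% of all promoters. The motifs and the windows shown were chosen after the expression values were known, a match is a description of letters, and the absence of a match says only that these letters are not in this window.

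Each library held between 14291726 and 18938456 counts. Levels are given as CPM, a gene's count scaled by its library's total to the usual common library size, and 3 counts then equal 0.158 to 0.210 CPM. Libraries of the same group gave a chi-square per gene of 1.68 to 14.8 in pairwise comparison, beyond sampling noise. The DHA library of replicate 2 stood farthest from its group, so counts are also given without it. The control library of replicate 2 also stood apart, at 8.84 and 8.49 against replicates 1 and 3, which gave 3.30 between them. The epithelial markers EPCAM, KRT8, KRT18, KRT19, CDH1 and CDX2 were present in all 6 libraries, whereas VIL1 stayed at or below 1.08 CPM. The 7 epithelial markers summed to between 4239 and 4632 CPM in control and between 5474 and 5621 CPM in DHA. Most of that sum was KRT8, KRT18 and KRT19, each higher in every DHA library than in any control library. CDH1 went the other way, at 93.2, 108 and 95.3 CPM in control and 74.3, 79.9 and 74.7 CPM in DHA. EPCAM and CDX2 overlapped between the groups. Of 5 markers of other cell types, PTPRC and COL1A2 were at 0, and their sum was 22.8 to 31.4 CPM in control and 72.5 to 94.3 CPM in DHA, most of it COL1A1. The part of these marker differences in the results below was not tested. Fewer cells, or less RNA per cell, cannot be told apart in such bulk samples.

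Tested members changed in both directions, by less than 2-fold except for CLK1. Of 43 members, 38 passed the filter on low counts. By the quasi-likelihood test of edgeR, with p-values adjusted by Benjamini-Hochberg over 15811 genes, 11 members were higher in DHA, 15 were lower and 12 were not called at an adjusted p under 0.05. Over all tested genes 29.6% were higher and 30.1% were lower, so the members' share of rises lies near the background. Many members are abundant, and among genes whose mean was 50 CPM or more, a limit chosen after seeing the data, 28.2% were higher and 44.6% lower, where 34 members split into 9 higher, 13 lower and 12 not called, so the share of falls was no larger than among genes of like abundance. The members' median log2 fold change was -0.08, against 0.01 over all tested genes and -0.12 over genes of at least 50 CPM. CLK1 was the 1 tested member past 2-fold, where the background was 10.7% of genes for rises and 4.96% for falls, and the largest fall, that of SRSF1, left 0.595 of the control level.

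**Figure D1:**
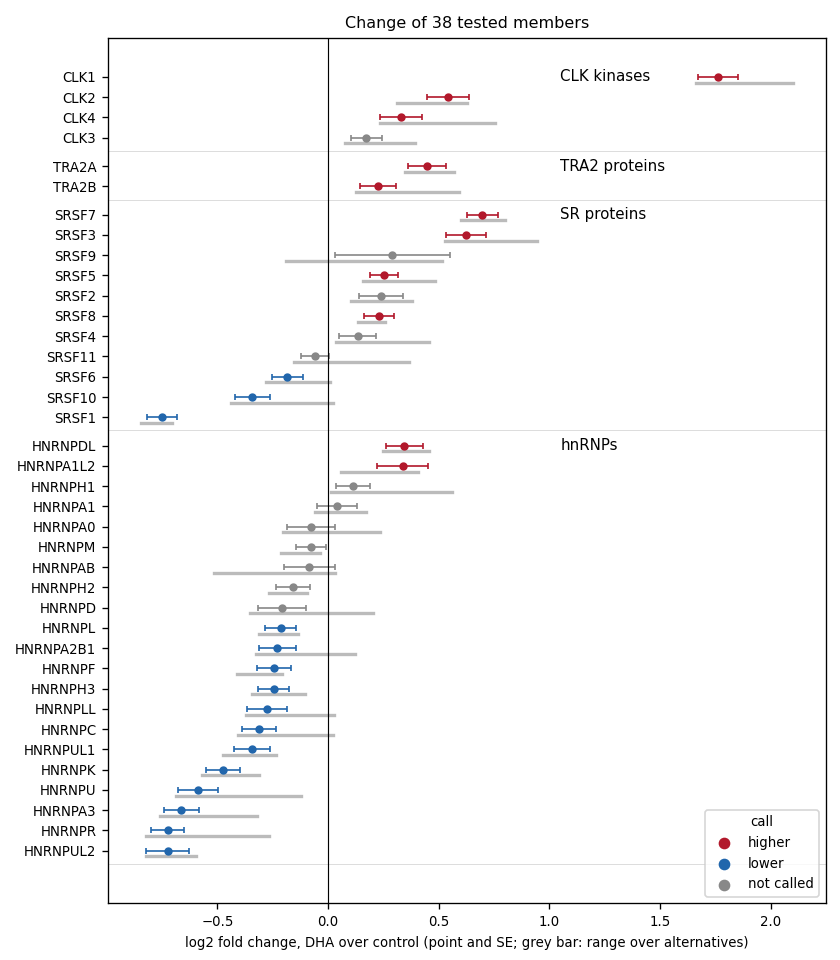
Log2 fold change (DHA over control) of the 38 tested members by family. Points and error bars are the estimate and its SE, colour gives the call at an adjusted p under 0.05, and the grey bar under each point spans the 15 alternative settings. CLK1 at 1.76 stands apart from the others, and SR protein genes lie on both sides of 0 between 0.70 for SRSF7 and -0.75 for SRSF1.

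The split depended on scaling and on the libraries used. With library totals in place of TMM factors 7 members were higher and 18 lower, and with an offset for GC content and length 14 were higher and 11 lower. All genes shifted too. With library totals 3852 of 15811 genes were higher and 5612 lower, against 4674 and 4757 in the main fit. With the offset 3617 of 15766 genes were higher and 5285 lower. That offset moved the median of all genes from 0.01 to -0.09. Without the DHA library of replicate 2, 16 members were higher and 13 lower, beside 4792 and 4607 of 16077 genes. Without the control library of replicate 2, 9 members were higher and 16 lower, beside 4374 and 4598 of 16441 genes. Calls that held in each of 15 alternative settings numbered 6 higher, namely CLK1, CLK2, SRSF3, SRSF7, TRA2A and HNRNPDL, and 6 lower, namely SRSF1, HNRNPR, HNRNPA3, HNRNPUL2, HNRNPK and HNRNPUL1. By the same count, which was added after seeing the data, 14.7% of all tested genes were higher in every setting and 20.0% were lower.

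**Figure D2:**
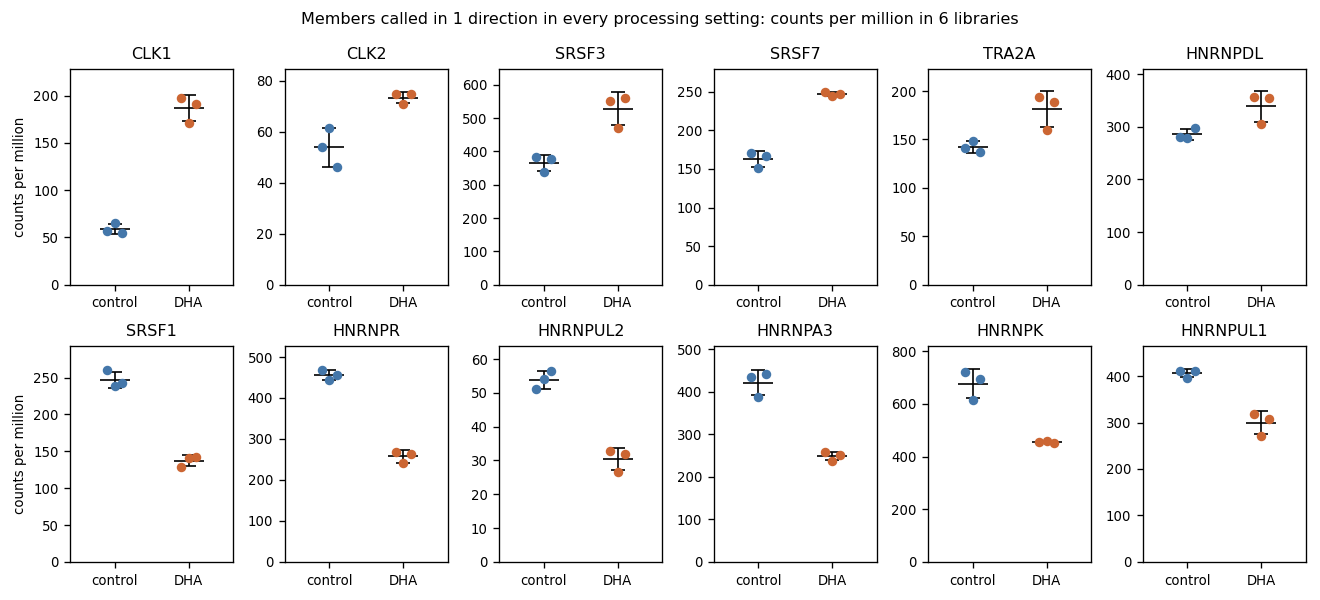
Level in CPM of the 12 members called in 1 direction in the main test and in each of 15 alternatives. Points are the 6 libraries, bars are the mean and SD (n = 3 per group), and each axis starts at 0. For every gene shown the 3 DHA libraries lie wholly above (upper panels) or wholly below (lower panels) the 3 control libraries. The genes were picked by their calls in these same libraries, so their separation is not a further result. The share of all genes with separate groups was not computed.

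Among the CLK kinases, 3 of 4 were higher in DHA, 0 were lower and 1 was not called, with a median log2 fold change of 0.44. The background was 29.6% higher and 30.1% lower. CLK1 (chromosome 2, 200853009 to 200864744, minus strand) was at 57.2, 65.0 and 54.3 CPM in the control libraries and at 197, 171 and 192 CPM in the DHA libraries. Every DHA library was well above every control library. CLK1 rose by 1.76 ± 0.09 (log2, SE), or 3.39-fold (adjusted p = 3.48e-08, edgeR). In the authors' deposited table of genes past their own limits, which lists 2969 genes, CLK1 has a log2 fold change of 1.753.

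CLK2 (chromosome 1, 155262868 to 155278491, minus strand) was at 54.0, 61.5 and 46.3 CPM in control and at 74.7, 71.0 and 74.7 CPM in DHA. The groups did not overlap. CLK2 rose by 0.54 ± 0.10 (adjusted p = 0.000461, edgeR), a value of 0.31 with the GC and length offset.

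CLK4 was the least abundant kinase of the family, at 15.8, 15.5 and 15.0 CPM in control and 18.8, 18.6 and 17.1 CPM in DHA. The groups were close but did not overlap. CLK4 rose by 0.33 ± 0.10 (adjusted p = 0.0107, edgeR), a call lost with library totals and without a low-count filter, and the value was 0.75 with the GC and length offset. CLK3 was at 81.4, 80.1 and 77.3 CPM in control and at 88.4, 80.9 and 82.2 CPM in DHA, with groups that overlapped narrowly. Its log2 fold change was 0.17 ± 0.07 (adjusted p = 0.0516, edgeR), and it was called without the DHA library of replicate 2, at 0.24, and with the offset, at 0.39. Per kilobase of transcript, CLK4 had the lowest level of the family under each of 3 definitions of length, whereas the order of CLK1, CLK2 and CLK3 in control changed with the definition.

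The summed level of the 4 CLK genes was 208 ± 14.6 CPM in control and 362 ± 18.9 CPM in DHA (SD, n = 3), a ratio of 1.74 that CLK1 dominates. The 12 SR protein genes together stayed at 2439 ± 38.3 and 2464 ± 69.5 CPM, and the 2 TRA2 genes were at 426 ± 5.71 and 491 ± 45.0 CPM. The 25 hnRNP genes summed to 10020 ± 525 CPM in control and 7867 ± 309 CPM in DHA, a ratio of 0.785. These sums were not tested, since an exact permutation test of 3 libraries against 3 cannot go below p = 0.1. Control and DHA libraries did not overlap in the CLK, TRA2 and hnRNP sums, and they overlapped in the SR protein sum.

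**Figure D3:**
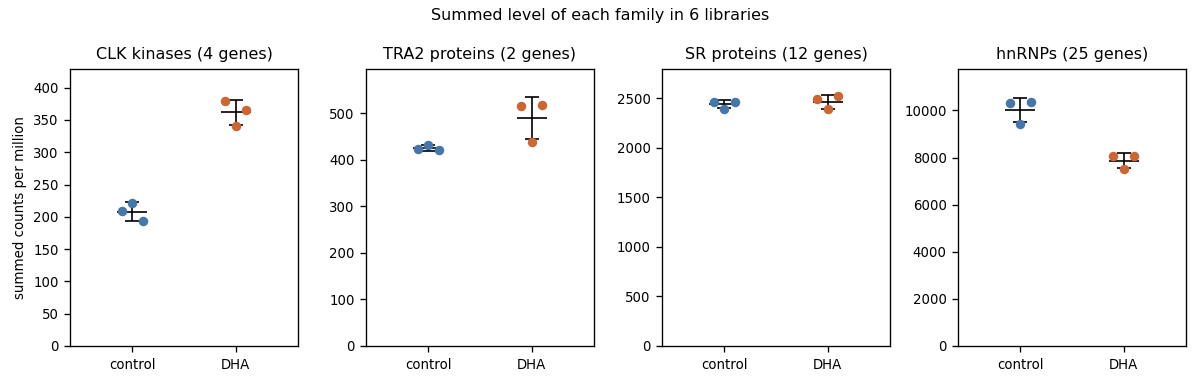
Summed level in CPM of each family in the 6 libraries. Points are libraries, bars are the mean and SD (n = 3 per group), and each axis starts at 0. The CLK sum is higher and the hnRNP sum lower in all DHA libraries, while the SR protein sums of 2439 and 2464 CPM lie within the spread.

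Among 11 tested SR protein genes, 4 rose, 3 fell and 4 were not called, with a median log2 fold change of 0.23. The background was 29.6% higher and 30.1% lower, or 28.2% and 44.6% among genes of at least 50 CPM. SRSF7 (chromosome 2, 38743599 to 38751494, minus strand), which carries a zinc knuckle and takes part in mRNA export, was at 171, 151 and 167 CPM in control and at 249, 245 and 247 CPM in DHA. SRSF3 (chromosome 6, 36594353 to 36605600, plus strand), the smallest SR protein, was at 382, 339 and 378 CPM in control and at 552, 472 and 560 CPM in DHA. In both genes every DHA library lay above every control library. SRSF7 rose by 0.70 ± 0.07 (adjusted p = 6.37e-06) and SRSF3 by 0.62 ± 0.09 (adjusted p = 0.000102) in edgeR's quasi-likelihood test, and SRSF3 was at 0.94 with the offset.

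SRSF1 (chromosome 17, 58003360 to 58007346, minus strand), the founding member of the family, moved the other way. It was at 260, 239 and 242 CPM in control and at 129, 140 and 142 CPM in DHA. The groups were far apart, and SRSF1 fell by 0.75 ± 0.07 on the log2 scale (adjusted p = 3.33e-06, edgeR), between -0.85 and -0.70 over all alternatives. An annotated gene on the same strand, AC015813.2, shares 56.6% of the exon bases of SRSF1. It was not found among the deposited counts, so whether reads were divided between them could not be tested.

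The other SR protein genes moved less. SRSF5 and SRSF8 rose by 0.25 ± 0.06 (adjusted p = 0.00498) and 0.23 ± 0.07 (adjusted p = 0.0115) in edgeR's test. SRSF5 was at 0.48 with the offset and lost its call without a low-count filter. SRSF8, which derives from a retrotransposed copy of SRSF2, lost its call without the control library of replicate 2, at 0.18, with library totals and without a low-count filter. SRSF10, known as a splicing repressor when dephosphorylated after heat shock, fell by 0.34 ± 0.08 (adjusted p = 0.00264, edgeR), and with the offset it was at 0.02. SRSF6, the most abundant SR protein gene by CPM in control, was at 483, 477 and 468 CPM in control and 403, 372 and 399 CPM in DHA. These groups did not overlap, yet its fall of 0.18 ± 0.07 (adjusted p = 0.0390, edgeR) was lost in each leave-one-out fit except that without the control library of replicate 2, where values ran from -0.20 to -0.11, and it was at 0.01 with the offset. The call of SRSF6 was also lost with DESeq2, with DESeq2-type size factors and with the filter of 1 CPM in 3 libraries. It held in 5 of 15 alternatives.

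The SR protein genes not called were SRSF2 at 0.24 ± 0.10, SRSF4 at 0.13 ± 0.08, SRSF11 at -0.06 ± 0.06 and SRSF9 at 0.29 ± 0.26 (log2, SE). SRSF2 and SRSF4 were called higher without the DHA library of replicate 2, at 0.38 and 0.25, and SRSF11 and SRSF4 were called higher with the offset, at 0.37 and 0.45. SRSF9 rested on 1 library, at 52.0, 116 and 47.7 CPM in DHA against 58.3, 54.6 and 75.0 CPM in control. The second of these DHA libraries was the highest of all 6, and without it the log2 fold change of SRSF9 was -0.19. GATC, a gene on the opposite strand, shares 46.2% of the exon bases of SRSF9, and MFSD11 shares 36.7% of those of SRSF2. No source used here gives the strand setting of the counting, and reads of such partners cannot be told apart.

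SRSF12 was below the filter on low counts in the main fit. It was called higher without a low-count filter and in the leave-one-out fits other than that without the DHA library of replicate 2. It had 0 counts in each control library and 9, 14 and 11 counts in the DHA libraries, or 0.739 ± 0.119 CPM (SD, n = 3). Taking 3 counts over the 3 control libraries together as the floor, this is at least 12.7-fold higher, and the floor covers counting error only. The authors' deposited table lists SRSF12 with an adjusted p of 5.955e-05.

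Both TRA2 genes, which encode the human relatives of the Drosophila splicing factor transformer-2, were called higher, with a median log2 fold change of 0.34. The background of rises was 29.6% of tested genes. TRA2A (chromosome 7, 23504780 to 23532041, minus strand) was at 141, 148 and 137 CPM in control and at 194, 160 and 189 CPM in DHA. Its groups did not overlap, and it rose by 0.45 ± 0.09 (adjusted p = 0.000876, edgeR). TRA2B was at 282, 284 and 284 CPM in control and at 322, 279 and 329 CPM in DHA. The DHA library of replicate 2 lay below all controls, and the other two lay above them. TRA2B rose by 0.23 ± 0.08 (adjusted p = 0.0295, edgeR). That call was lost without any 1 of the other 5 libraries, at 0.19 to 0.22, as well as with library totals and without a low-count filter, and with the offset the value was 0.59.

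Among 21 tested hnRNP genes, 2 rose, 12 fell and 7 were not called, with a median log2 fold change of -0.23. Of the 18 with a mean of at least 50 CPM, 1 rose and 10 fell, and the background there is the 44.6% lower given above. With the offset 2 hnRNP genes rose and 10 fell. HNRNPU (chromosome 1, 244840638 to 244864560, minus strand), which encodes the chromatin-associated scaffold attachment factor A, was at 1409, 1244 and 1398 CPM in control and at 880, 758 and 880 CPM in DHA. The groups were far apart, and HNRNPU fell by 0.59 ± 0.09 (adjusted p = 0.000168, edgeR). With the offset that call was lost, at -0.13 (adjusted p = 0.298).

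HNRNPR (chromosome 1, 23303771 to 23344336, minus strand), a close relative of SYNCRIP, was at 468, 443 and 455 CPM in control and at 269, 240.5 and 263 CPM in DHA. HNRNPA3 (chromosome 2, 177212563 to 177223958, plus strand), of the A/B group of core hnRNPs, was at 436, 388 and 441 CPM in control and at 258, 238 and 251 CPM in DHA. HNRNPUL2 (chromosome 11, 62712630 to 62727349, minus strand), a paralog of HNRNPU, was at 51.1, 54.2 and 56.4 CPM in control and at 32.8, 26.7 and 32.0 CPM in DHA. No DHA library reached a control library in any of these genes. In edgeR's quasi-likelihood test HNRNPR fell by 0.72 ± 0.07 (adjusted p = 7.34e-06), HNRNPA3 fell by 0.66 ± 0.08 (adjusted p = 1.99e-05) and HNRNPUL2 fell by 0.73 ± 0.10 (adjusted p = 5.84e-05). With the offset HNRNPR was at -0.27 and HNRNPA3 at -0.32, both still called, and HNRNPUL2 was at -0.81. The readthrough gene HNRNPUL2-BSCL2 shares 44.1% of the exon bases of HNRNPUL2. It had 1, 0 and 4 counts in control and 0, 2 and 0 counts in DHA. The 10 pseudogenes named for HNRNPA3 held 4.15% of their joint counts.

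HNRNPK, a poly(C)-binding protein of nucleus and cytoplasm, was at 719, 614 and 695 CPM in control and at 455, 460 and 453 CPM in DHA. The DHA libraries lay close together and below all controls. HNRNPK fell by 0.47 ± 0.08 (adjusted p = 0.000249) and HNRNPUL1 fell by 0.34 ± 0.08 (adjusted p = 0.00313) in edgeR's test. HNRNPA2B1, the most abundant hnRNP gene by CPM in control, was at 1468, 1338 and 1516 CPM in control and at 1175, 1085 and 1189 CPM in DHA. HNRNPC, which binds uridine tracts, was at 1037, 925 and 1027 CPM in control and at 766, 723 and 764 CPM in DHA. Groups of both genes were separate. HNRNPA2B1 fell by 0.23 ± 0.08 (adjusted p = 0.0308) and HNRNPC fell by 0.31 ± 0.08 (adjusted p = 0.00446) in edgeR's test, but with the offset they were at 0.12 and 0.02. The call of HNRNPA2B1 was also lost in each leave-one-out fit except that without the control library of replicate 2, at -0.25 to -0.15.

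The remaining falls were small. HNRNPL, which binds CA repeats, fell by 0.21 ± 0.07, its paralog HNRNPLL fell by 0.27 ± 0.09, and HNRNPF and HNRNPH3, of the group that binds runs of guanines, fell by 0.24 ± 0.08 and 0.25 ± 0.07, with adjusted p from 0.0102 to 0.0204 in edgeR's test. The calls of HNRNPL, HNRNPLL and HNRNPF were each lost in 3 leave-one-out fits. HNRNPL lost its call without the control library of replicate 1 or 3 or the DHA library of replicate 1, and HNRNPF without the control library of replicate 1 or 3 or the DHA library of replicate 3. HNRNPLL lost its call without the control library of replicate 3 or the DHA library of replicate 1 or 3. With the offset HNRNPLL was at 0.03, HNRNPH3 lost its call at -0.10 and HNRNPF was at -0.41. Without the DHA library of replicate 2 HNRNPL was at -0.14.

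The hnRNP genes that rose were HNRNPDL, a paralog of HNRNPD, and HNRNPA1L2, an intronless relative of HNRNPA1. HNRNPDL was at 281, 278 and 297 CPM in control and at 356, 305 and 355 CPM in DHA, with no overlap. It rose by 0.35 ± 0.08 (adjusted p = 0.00353, edgeR). HNRNPA1L2 was near 10.0 ± 0.569 CPM in control and 11.9 ± 0.937 CPM in DHA (SD, n = 3), and its rise of 0.34 ± 0.12 (adjusted p = 0.0255, edgeR) was lost without the control library of replicate 2 or 3 or the DHA library of replicate 1, at 0.28 to 0.33, and also with library totals, without a low-count filter and with the offset, at 0.06.

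Of the 7 hnRNP genes not called, HNRNPH1 was at 0.11, HNRNPA1 at 0.04, HNRNPA0, HNRNPM and HNRNPAB at -0.08 each, HNRNPH2 at -0.16 and HNRNPD at -0.21 (log2 fold change). HNRNPA1 was at 635, 630 and 632 CPM in control and at 657, 530 and 636 CPM in DHA, so that the DHA library of replicate 2 was lowest. Without it HNRNPA1 and HNRNPH1 were called higher at 0.17 and 0.20, and without the control library of replicate 2 HNRNPD was called lower at -0.35. With the offset HNRNPH1 was called higher at 0.56, and HNRNPAB, HNRNPH2 and HNRNPM lower at -0.52, -0.27 and -0.21. The 33 pseudogenes named for HNRNPA1 held 17.2% of the joint counts, and with them added HNRNPA1 was at 0.03. HNRNPCL1 and HNRNPCL2 had 1 count each over the 6 libraries, and HNRNPCL3 and HNRNPCL4 had none.

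**Figure D4:**
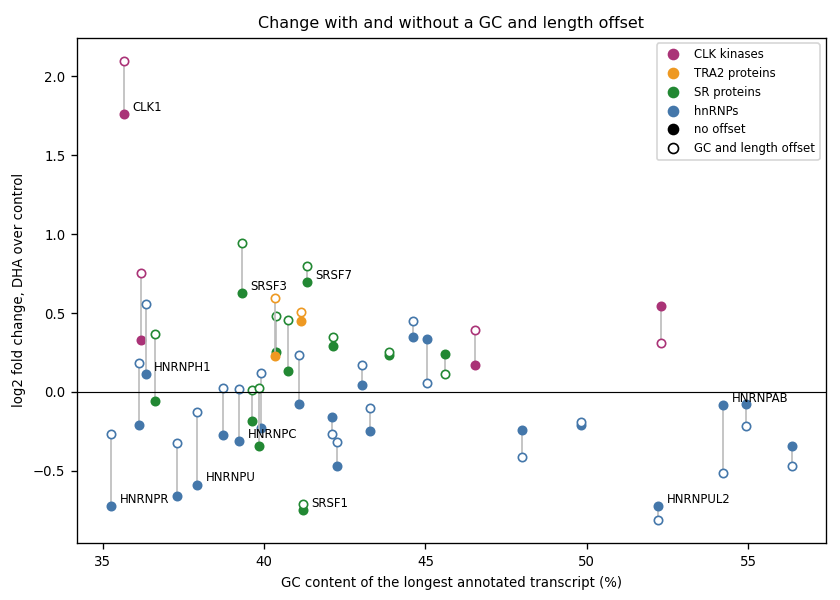
Log2 fold change of the 38 tested members against the GC content of their longest annotated transcript. Filled points are without and open points with an offset for GC content and length, and colour gives the family. CLK1, SRSF3, SRSF7, SRSF1 and HNRNPUL2 keep their side of 0, with SRSF1 at -0.71, while HNRNPU moves from -0.59 to -0.13. HNRNPU has a GC content of 37.9% and 22512 exon bases, and which of the 2 moves it was not tested.

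The members' transcripts have a median GC content of 41.2%, against 49.0% over 13120 tested protein-coding genes. The offset removes, in each library, a smooth trend of counts on GC content and on length over all genes, and whether such a trend is technical was not tested. Of the 15 members that fell, 8 were still called lower with the offset and 7 were not called. Of the 11 that rose, 10 were still called higher. Among the 12 not called, 4 were then higher and 3 lower.

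In GENCODE 29, 29 of the 38 tested members have a transcript annotated for nonsense-mediated decay (76.3%), against 42.6% of tested protein-coding genes. They include all 11 tested SR protein genes, both TRA2 genes, 3 of 4 CLK genes and 13 of 21 hnRNP genes. The tested members also have more annotated transcripts, with a median of 11.5 against 7 for tested protein-coding genes. The shares were not adjusted for the number of transcripts. Whether 76.3% is high for genes with as many transcripts was therefore not tested. The gene-level counts used here cannot tell a coding isoform from one that is decayed.

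Other genes of the pathway were described by lists, against the background of 29.6% higher and 30.1% lower. Many list genes are abundant, and among genes of at least 50 CPM the background was 28.2% higher and 44.6% lower. Of 9 kinases of SR proteins and nuclear import receptors of the transportin group, 1 was higher, 6 were lower and 2 were not called, with a median log2 fold change of -0.35. TNPO1, an import receptor of hnRNPs, fell by 1.04 ± 0.06 and was at -0.59 with the offset, while the kinase DYRK2 fell by 1.55 ± 0.09 and SRPK1, the cytoplasmic kinase of SR proteins, fell by 0.59 ± 0.07. PRPF4B fell by 0.51 ± 0.08 and lost its call with the offset, at -0.12. DYRK1A rose by 0.21 ± 0.08, or 0.57 with the offset, a call kept in 10 of 15 alternatives and lost without the control library of replicate 1 or 3, at 0.23 and 0.14, or the DHA library of replicate 1, at 0.23.

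Of 37 SR-related factors, 14 were higher, 13 lower and 10 not called, with a median of -0.03. The cyclin CCNL1, partner of splicing-associated kinases, rose by 1.26 ± 0.07, and CLASRP, a protein that binds CLK4, rose by 1.16 ± 0.08. RSRC2 and SCAF1, both with arginine and serine repeats, rose by 1.51 ± 0.11 and 0.98 ± 0.08, the latter at 0.42 with the offset. With that offset 18 were higher and 7 lower. Without the control library of replicate 3, or the DHA library of replicate 1, 8 were lower.

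Of 22 hnRNPs and related proteins under other names, 3 were higher, 11 lower and 8 not called, with a median of -0.25. CELF1, which binds GU-rich elements, fell by 1.27 ± 0.07, PTBP3, a polypyrimidine tract binder, fell by 1.11 ± 0.07, TARDBP (TDP-43) fell by 0.78 ± 0.08 and QKI fell by 0.88 ± 0.09. PTBP3 was at -0.69, TARDBP at -0.51 and QKI at -0.44 with the offset. PCBP2, RALY and TIAL1 rose by 0.33 ± 0.07, 0.34 ± 0.09 and 0.17 ± 0.06, and TIAL1 was at 0.51 with the offset. The call of TIAL1 held in 8 of 15 alternatives and was lost without any 1 library other than the DHA library of replicate 2, at 0.16 to 0.17.

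Core spliceosome genes, 50 in all, were split into 12 higher, 13 lower and 25 not called, with a median of 0.00. BUD31 rose by 0.95 ± 0.08, while PRPF8, the protein at the catalytic centre, fell by 0.62 ± 0.07 and the helicase DHX15 fell by 0.48 ± 0.07. With the offset BUD31 was at 0.54 and DHX15 lost its call at -0.03. Without the DHA library of replicate 2, 20 were higher. Of 15 nonsense-mediated decay factors, 3 were higher, 7 lower and 5 not called, with a median of -0.10. SMG1, the kinase of UPF1, fell by 0.66 ± 0.07 and was at -0.34 with the offset, and CASC3 fell by 0.38 ± 0.08, while SMG9 rose by 0.39 ± 0.07, EIF4A3 by 0.43 ± 0.10 and UPF3A by 0.23 ± 0.08, the last at 0.44 with the offset. The call of UPF3A was lost without the control library of replicate 1 or 3, at 0.17 and 0.24, or the DHA library of replicate 1 or 3, at 0.24 and 0.21. The list genes were called by the fit and threshold used for the members.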

How the data were processed

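Per the labels' protocols, poly(A) RNA went into NEBNext Ultra II libraries. HISAT2 and DESeq2 1.18.1 are named in the submitters' processing notes. No source used here gives the counting tool, its strand setting or the genome build. The authors deposited raw read counts per gene, from which 32 lines with no gene were left out, and 1 gene was kept for each of 143 shared names with identical counts. The authors' deposited comparison table gives their own log2 fold changes and adjusted p-values. A deposited table named as FPKM holds CPM and was not used. Coordinates are those of the deposited table, and 40 of 43 members had the same ones in GENCODE 29 (GRCh38).

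Counts were tested in R 4.3.3 with edgeR 4.0.16 (filterByExpr, TMM, glmQLFit, glmQLFTest, design without a block), Benjamini-Hochberg adjustment over 15811 genes and a threshold of 0.05. The common biological coefficient of variation was 0.0902. CPM use library totals. Alternatives were DESeq2 1.42.0, other size factors, library totals, 2 other low-count filters (none, or 1 CPM in 3 libraries), 6 leave-one-out fits, a replicate block, an offset in GC content and exon-union length (splines of 5 degrees of freedom), both together, and, added after seeing the data, pseudogene counts added to their gene. Of 100 genes each changed by a log2 of 1 and of 2 in simulated data on 15811 genes, 86 and 95 were recovered, with 9 false calls. The simulation gave all genes the same dispersion and changed far fewer genes than were called here, so these rates need not carry over to the data. The members and gene lists were chosen with earlier results of these data known. Per-sample levels are given for called members whose log2 fold change was at least 0.5 in size, all CLK and TRA2 genes and the most abundant members of each family, and those of SRSF9, HNRNPK, HNRNPC, HNRNPDL and HNRNPA1 were added after seeing the values. In each list the 4 genes with the smallest adjusted p and the less frequent direction, where 3 or fewer, are named, except for 2 genes not reported here. Levels per kilobase use 3 lengths, tried one after another with the values in view: the exon union, the median protein-coding transcript, and that median within GENCODE basic.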

Additional observations from a re-analysis of the deposited data

How the results depend on the processing

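Of 570 values of single members under the alternatives, 473 kept their direction and side of the threshold, 46 lost a call, 29 gained one and 22 changed sign. With the GC and length offset, without and with the replicate block, signs changed for SRSF10 at 0.0218 and 0.0227, SRSF11 at 0.367 and 0.366, SRSF6 at 0.0103 and 0.0100, HNRNPA2B1 at 0.119 and 0.123, HNRNPC at 0.0176 and 0.0219, HNRNPLL at 0.0274 and 0.0235, HNRNPA0 at 0.232 and 0.237, and HNRNPD at 0.186 and 0.205. The other sign changes were of members called in neither fit. HNRNPA1 was at -0.0570 with library totals and -0.0271 without a low-count filter. Leave-one-out values ran from -0.0131 (DHA replicate 1 left out) to 0.170 for HNRNPA1, from -0.209 to 0.0325 (control replicate 3 left out) for HNRNPAB, which was also at 0.00449 with DHA replicate 1 left out, and from -0.192 (DHA replicate 2 left out) to 0.513 for SRSF9. With library totals 7 members were higher in place of 11, and 3852 of all genes in place of 4674. Leaving out 1 library gave 9 to 16 members higher and 10 to 16 lower over all 43 members. Over the 38 tested in the main fit, which leave out SRSF12, it gave 8 to 16 higher. The same fits gave 4058 to 4792 of all genes higher and 4287 to 4607 lower. The single higher gene of the SR kinase and transportin list became 0 with library totals and without a low-count filter, and 0 to 1 in leave-one-out fits. The lower SR-related factors numbered 7 with the offset, 8 with the offset and the block, and 8 to 11 in leave-one-out fits. The higher hnRNPs under other names numbered 5 with the offset and the block, and the higher core spliceosome genes 10 to 20 in leave-one-out fits. No shared deviation by replicate number was seen: same-numbered libraries deviated with correlations of 0.021, -0.084 and -0.054, against -0.083 to 0.111 for libraries of different number. These values cannot show whether the wells were paired. With the replicate block 11 members were higher and 15 lower. The order of levels per kilobase depended on the length: 3 of 6 pairs of CLK genes, 40 of 55 pairs of SR protein genes and 167 of 210 pairs of hnRNP genes had 1 order under 3 definitions in control, so orders that differ are not reported. The causes of these changes were not tested. At these totals, genes under about 3 counts per library could not be compared.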
